A study of Rattus norvegicus with 30 samples.

Results

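Magi1 encodes a scaffold protein of the membrane-associated guanylate kinase family, and the 282371 bp of its gene body examined here, chr4:125859630-126142000 of the rat Rn6 build, lay between the outermost sites that the study lists for the gene. Peaks of methylated DNA from all 30 libraries were merged wherever they shared at least 1 bp, and the members were the merged regions in that span with a called peak in at least 2 libraries. There were 78 of these among 432103 such regions on the 20 autosomes. The span was chosen because the listed sites within it had been selected on measured group differences in these same animals, so values at those sites are given below as a description.

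The libraries came from prefrontal cortex of Sprague-Dawley rats at postnatal day 22, profiled by meDIP-seq, in which an antibody against 5-methylcytosine enriches methylated DNA fragments before sequencing. Prenatal alcohol-exposed (PAE) offspring came from dams given a liquid ethanol diet, pair-fed (PF) offspring from dams given an isocaloric liquid diet with maltose-dextrin in a ration matched to a PAE partner, and control (CON) offspring from dams given the control diet in pelleted form ad libitum. Each group held 10 animals from 5 of the 15 dams, with 1 animal labelled female and 1 labelled male per dam. PF animals were exposed to restricted maternal feeding, and the diet of their dams was liquid where that of CON dams was pelleted. All animals in the 3 groups were sequenced as bulk tissue, in which fewer cells with a methylated site and less methylation per cell cannot be told apart.

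MAGI proteins carry a guanylate kinase-like domain, WW domains and several PDZ domains, with which they hold receptors, adhesion molecules and signalling proteins together at cell junctions and at synapses. Gene bodies of mammalian genes are commonly methylated at CpG sites, while active promoters are commonly free of methylation. A meDIP-seq peak therefore marks a stretch with many methylated CpGs relative to its surroundings, and its height depends on CpG density as well as on methylation. Magi1 is a long gene, 605639 bp in the GRCr8 assembly, where its protein-coding neighbours are Adamts9 and Slc25a26. The 3 listed sites are annotated by the study as intronic. No Rn6 sequence or exon annotation was used here, so the CpG content and exon or intron status of the other regions are not given.

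Labelled sex and sequencing lane were checked in the libraries first. In 7 libraries 2.65% to 3.14% of peaks lay on chromosome X and only 4 to 11 peaks on chromosome Y. The other 23 had 0.774% to 1.15% on chromosome X with 38 to 87 chromosome Y peaks. Of the 7 libraries, 5 were labelled male and 2 female, and of the 23, 13 were labelled female. The sex chromosomes therefore matched the labelled sex in 12 libraries (3 CON, 3 PF and 6 PAE) and went against it in 18, and sex is called labelled sex throughout. Whether group labels are affected in the same way was not tested. The libraries also differed by flow-cell lane: lane 8 averaged 171181 autosomal peaks per animal against 126103 in lane 4. Lane 4 held no PF animal and lane 7 no PAE animal.

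DNAm enrichment along the span was made of many short regions that few animals shared and a handful that most shared. The 78 regions were 290 to 1207 bp long (median 487 bp) and together covered 44125 bp, or 15.6% of the span. One region was called in all 30 animals, 6 in 20 to 29, 16 in 10 to 19, 38 in 3 to 9 and 17 in 2 only, and the median region was called in 6 animals. Neighbouring regions were separated by a median of 2620 bp. The longest gap, 15304 bp, ran from chr4:125980144-125995447, near the middle of the span.

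**Figure D1:**
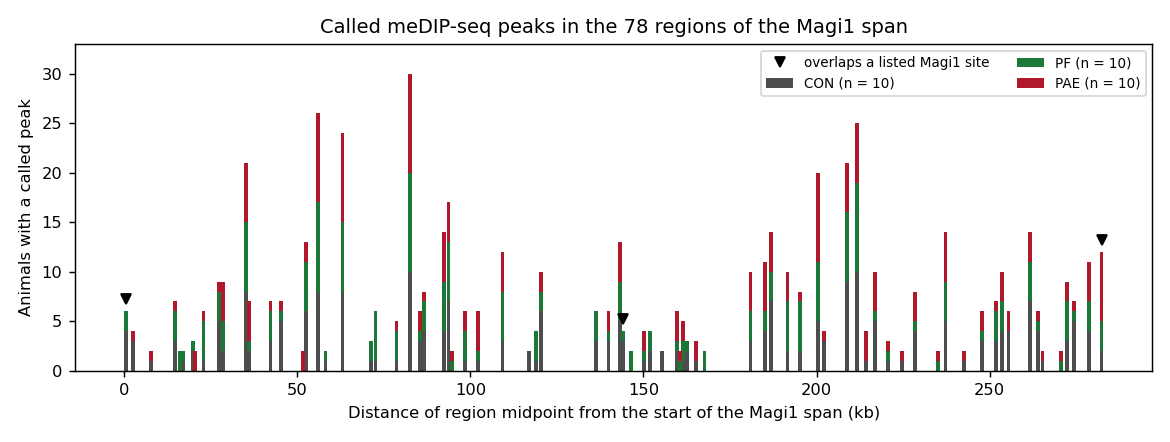
Number of animals with a called peak in each of the 78 regions (vertical axis) by distance of the region's midpoint from the start of the span in kb (horizontal axis), with CON, PF and PAE animals stacked. One region reached all 30 animals, and the triangles mark the 3 regions that overlap listed sites, which were called in 6, 4 and 12 animals.

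Peak heights overlapped on both sides of the membership rule. The 5 regions called in 3 libraries had peaks of 0.437 to 1.99 scaled fragments (median 0.642). The 17 regions called in 2 libraries had peaks 0.430 to 1.14 scaled fragments high (median 0.725), and the 23 further regions of the span called in 1 library, which are not members, had peaks of 0.412 to 0.955 (median 0.579). Here and below, height is the highest pileup of overlapping fragments in a region, as the deposited peak lists give it, per 1000000 filtered fragments of the library, and its unit is called scaled fragments. The nearest region before the span, chr4:125853897-125854222, lay 5408 bp away, with peaks in 1 CON, 1 PF and 0 PAE animals. The nearest region after it, chr4:126148109-126148657, lay 6109 bp away, with peaks in 4 CON, 9 PF and 5 PAE animals.

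Regions were more closely spaced in the Magi1 span than in its surroundings, although fewer of them were shared by most animals. The span held 27.6 regions per 100 kb, against 20.5 and 21.2 in the windows of the same length before and after it, 15.5 over chromosome 4 and 16.5 over the autosomes. Each animal had 7.52 ± 2.71 peaks per 100 kb of the span (SD, n = 30), 6.10 ± 2.01 in the window before, 6.99 ± 2.14 in the window after and 5.49 ± 0.934 over the autosomes. The span exceeded the animal's own autosomal density in 26 of 30 animals, the window before in 24 and the window after in 17. Only 8 of the 78 regions, or 10.3%, were called in at least 15 animals, against 17.2% before the span, 20% after it and 23.3% over the autosomes. Regions called in 2 animals only made up 21.8% of the span's members and 18.5% of autosomal regions.

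Only the 8 widely called regions had a median height over the 30 animals above the floor, which follows from setting animals without a peak to it. An animal without a called peak was given the floor of 0.438 scaled fragments, the highest of the 30 libraries' lowest scaled pileups, and a called peak under it was raised to it. In 70 of the 78 regions the median animal stood at this floor. The 8 medians ran from 0.586 at chr4:125952849-125953792 to 1.53 at the region called in every animal, and the next were 1.08, 1.04, 0.869, 0.847, 0.709 and 0.683.

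The region called in all 30 animals, chr4:125941855-125942602, lay 82.6 kb into the span. Its height ranged from 1.03 to 2.40 in CON (median 1.75), from 0.877 to 2.28 in PF (median 1.53) and from 1.01 to 1.77 in PAE (median 1.44). All 3 groups overlapped over most of their range, with the highest animal in CON and the lowest in PF. Mean heights were 1.63 ± 0.386 in CON, 1.59 ± 0.409 in PF and 1.42 ± 0.262 in PAE (SD, n = 10 each). The log2 difference, fitted with limma with terms for labelled sex and lane, was −0.13 ± 0.17 for PAE minus CON (SE, adjusted p = 0.879), −0.17 ± 0.17 for PAE minus PF (adjusted p = 0.987) and 0.05 ± 0.18 for PF minus CON (adjusted p = 0.973).

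The second highest region, chr4:126070946-126071570, had a peak in every CON animal, 9 PF animals and 6 PAE animals. Its height ranged from 0.645 to 1.36 in CON (median 1.12), from the floor to 1.72 in PF (median 1.08) and from the floor to 1.58 in PAE (median 1.01). The groups overlapped, and 4 of the PAE animals stood at the floor. The log2 difference of PAE from CON was −0.44 ± 0.26 (SE, limma adjusted p = 0.706), and within lanes PAE was lower in 3 of the 4 lanes that held both groups. With animals lacking a peak set to 0 and a pseudocount of 0.1 the difference was −1.41 (unadjusted limma p = 0.0157, adjusted p = 0.714).

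The third, chr4:125894523-125895020, had a peak in 8 CON animals, 7 PF animals and 6 PAE animals. Its height ranged from the floor to 1.91 in CON (median 1.18), from the floor to 1.42 in PF (median 1.03) and from the floor to 2.04 in PAE (median 0.784). It had the largest fitted difference between PAE and CON of any tested Magi1 region, −0.66 ± 0.34 on the log2 scale (SE), with a limma adjusted p of 0.684. The highest single animal was nevertheless in PAE, and the mean of PAE was below that of CON in all 4 lanes that held both.

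The longest region, chr4:125922119-125923325, spanned 1207 bp and had peaks from 8 CON animals, 7 PF animals and 9 PAE animals. It was merged from 24 peaks of 264 to 1116 bp, and no more than 22 of them covered any 1 base, so the merged region joined peaks that did not all coincide. Its median heights were 0.639 in CON, 0.648 in PF and 0.724 in PAE, and its PAE minus CON difference was 0.08 ± 0.19 (SE, limma adjusted p = 0.939).

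**Figure D2:**
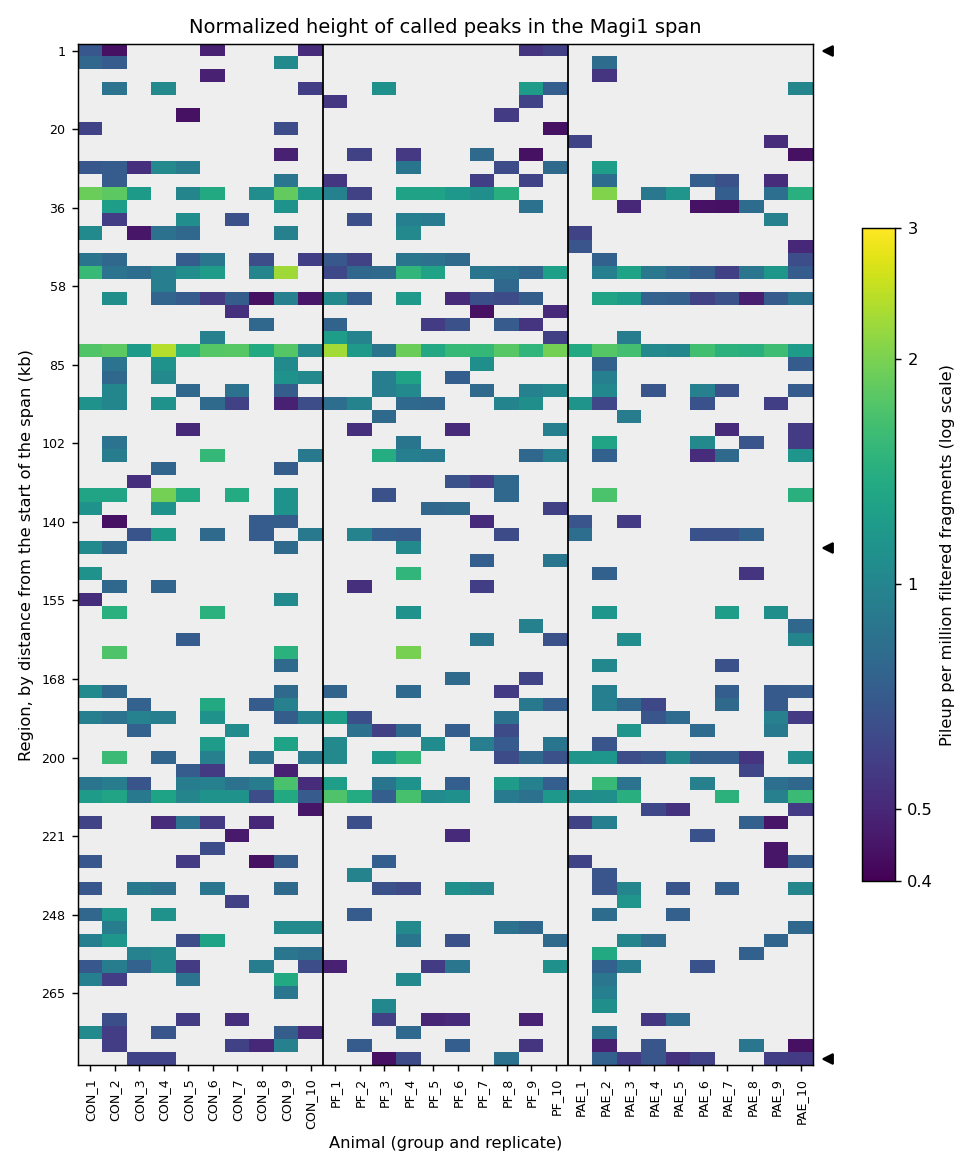
Height of each called peak in scaled fragments (colour, log scale) for the 78 regions (rows, ordered along the span and marked every 6 rows by distance from its start in kb) in the 30 animals (columns, by group); pale grey cells have no called peak and triangles mark the 3 regions at listed sites. One row is filled across all 30 animals and most rows are filled in fewer than 10.

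The 3 regions at listed sites were called in 6, 4 and 12 animals, against a median of 6 over the members, so none was among the 8 with a median height above the floor. The study lists the first pair as differing between PAE and both other groups and the third as differing from CON in PAE and PF together. These lists came from read counts that were not analysed here, taken from these same animals, so the values at the 3 sites are given here without p-values.

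At the first, chr4:125859630-125860701, peaks came from 4 CON animals and 2 PF animals, with 0 from PAE. Height ranged from the floor to 0.693 in CON and to 0.586 in PF, the median of both groups was the floor, and all 10 PAE animals stood at the floor. The called peaks were 264 to 720 bp long within a merged region of 1072 bp, and at most 5 of the 6 shared a base. The fitted log2 differences were −0.06 ± 0.07 for PAE minus CON, −0.03 ± 0.07 for PAE minus PF and −0.04 ± 0.08 for PF minus CON (SE). All 3 were within 1 SE of 0.

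At the second, chr4:126003548-126003914, peaks came from 3 CON animals and 1 PF animal, with 0 from PAE. The called peaks were of moderate height, 0.791 to 1.04 scaled fragments, and all 4 shared a base, while the other animals of CON and PF and all 10 PAE animals stood at the floor. The fitted log2 differences were −0.31 ± 0.15 for PAE minus CON, −0.18 ± 0.15 for PAE minus PF and −0.13 ± 0.16 for PF minus CON (SE). With 1 animal left out, PAE minus PF ranged from −0.25 to −0.03 and PF minus CON from −0.27 to −0.0003. Of the 4 animals with a peak, 3 were in lane 8 and 1 in lane 7, and 1 of the 4 lanes with both PAE and CON showed the difference, the other 3 having both groups at the floor. The part of lane in this difference was not tested.

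At the third, chr4:126141640-126142264, the order of the groups was turned round, and peaks came from 2 CON animals, 3 PF animals and 7 PAE animals. Height ranged from the floor to 0.601 in CON, to 0.854 in PF and to 0.749 in PAE, and PAE alone had a median above the floor, 0.573. Its called peaks spread over all 5 lanes, with 2 or 3 animals in each, and PAE was above CON in all 4 lanes that held both. The fitted log2 differences were 0.33 ± 0.15 for PAE minus CON, 0.17 ± 0.15 for PAE minus PF and 0.16 ± 0.16 for PF minus CON (SE). With 1 animal left out, PF minus CON ranged from 0.02 to 0.24. The animal with the highest peak was in PF, so the groups overlapped.

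**Figure D3:**
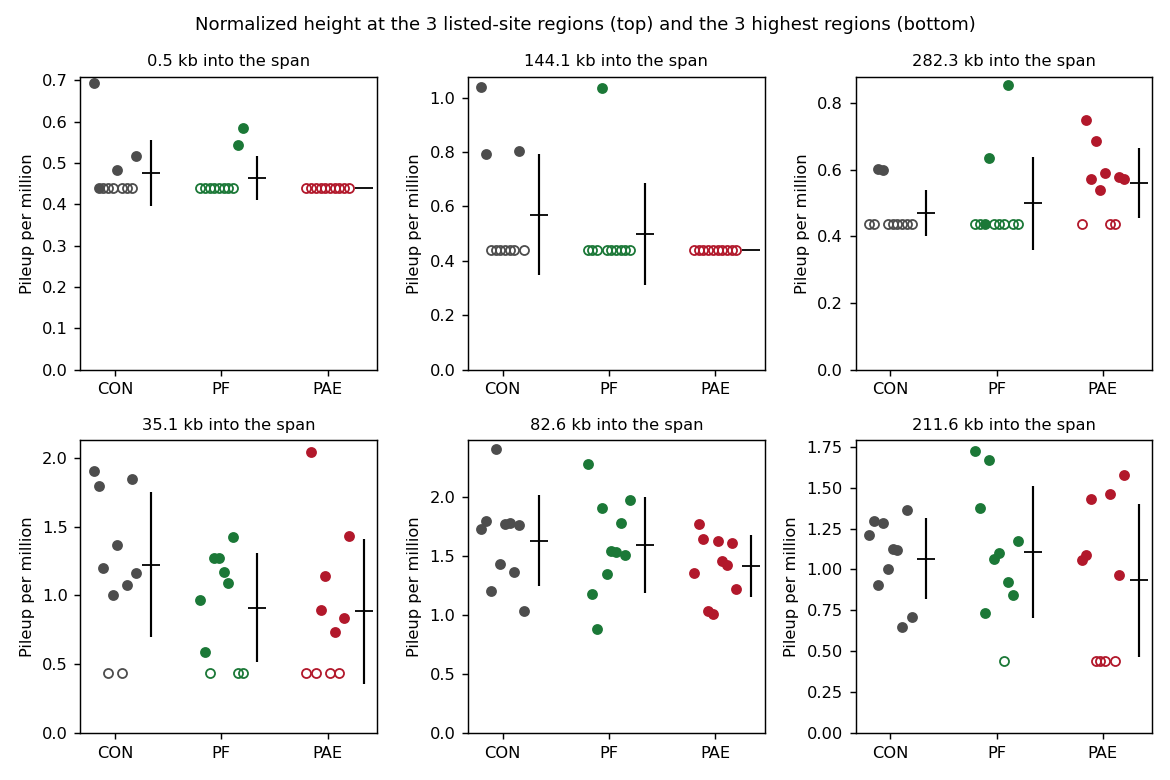
Height in scaled fragments (vertical axes, from 0) in the 10 animals of each group at the 3 regions overlapping listed sites (top) and the 3 regions of highest median height (bottom), labelled by distance from the start of the span. Filled points are called peaks, open points are animals set to the floor of 0.438, and bars are mean ± SD; at 0.5 and 144.1 kb all PAE animals were at the floor, and at 282.3 kb 7 PAE animals had a peak.

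The members whose heights were most like those of the listed regions over the 30 animals were called in 2 to 10 animals. The region at 126003548 was most like chr4:126021993-126022412 (Spearman's rho 0.81) and chr4:126123505-126123895 (0.81), with which it shared 3 and 4 animals with a called peak. The region at 125859630 was most like chr4:125879419-125879796 (rho 0.48) and chr4:125874074-125874534 (0.35), and the region at 126141640 most like chr4:125917618-125917941 (0.42) and chr4:126051014-126051421 (0.36). With most animals at the shared floor and the libraries sharing lanes, these coefficients describe which animals had a peak at both regions.

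To compare PAE with CON along the whole span, 61 members called in at least 3 animals were tested within a fit over 352026 autosomal regions, and 58 of these did not overlap a listed site. Of the 58, 19 would have missed that minimum without the group in which they were called most, so their entry to the test depended on that group. By group, 12 of the 58 would have missed it without CON, 9 without PF and 5 without PAE. Over the 352026 autosomal regions these numbers were 71626, 58721 and 53626, and a region can count under more than 1 group. Of the 58, 46 were lower in PAE by fitted value and 12 higher, or 79.3% lower, against 63.2% of all tested autosomal regions. At an unadjusted limma p under 0.05, 4 of the 58 (6.90%) were lower, where the background over all tested regions was 6.03%, and 1 (1.72%) was higher, where it was 1.34%. Both shares were near the background with all 30 animals, and 2 of the 5 regions, 1 lower and 1 higher, met the minimum of 3 animals only with the group in which they were called most. The 4 became 1 without CON replicate 9 or 10, PAE replicate 1, 3 or 7 or PF replicate 10 (backgrounds of 4.25% to 6.76%), and 7 without PAE replicate 2 or 10 (12.3% and 12.1%, against 7.07% and 6.32% of all). After Benjamini-Hochberg adjustment over all tested regions 0 of the 58 passed 0.05 (smallest adjusted p = 0.660), against a background of 0.000284%.

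The median log2 difference of the 58 regions was −0.12, beside −0.05 over all tested regions. Most animals stood at the shared floor, and with animals lacking a peak set to 0 and a pseudocount of 0.1 the medians were −0.36 and −0.15. They were −0.07 and −0.01 under quantile normalization, and −0.07 and −0.03 with lane 8 left out. The share of lower regions was smaller under other scalings, both among the 58 and over all tested regions. Under median ratio scaling 41 of the 58 were lower and 17 higher (70.7% lower, against 55.7% of all). Under quantile normalization, which equalizes the height distributions of the animals, 38 of the 58 were lower and 20 higher (65.5% lower, against 52.3% of all), with 2 lower and 0 higher at an unadjusted p under 0.05 (3.45% and 0%, against 3.26% and 2.46% of all), while over all tested regions the calls at that p went from 21234 lower and 4723 higher to 11492 lower and 8665 higher. Leaving out the 6 animals of lane 8 left 51 tested regions outside listed sites, of which 34 were lower (66.7%, against 57.4% of all), with 1 lower and 2 higher at an unadjusted p under 0.05 (1.96% and 3.92%, against 3.08% and 1.63% of all). In the 12 animals whose sex chromosomes matched the label, 26 of 36 were lower (72.2%, against 66.4% of all), 2 of them at an unadjusted p under 0.05 (5.56%, against 6.22% of all). The median log2 difference in these 12 animals was −0.20, beside −0.15 over all tested regions.

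At chr4:126021993-126022412 a high peak of 1.44 to 1.99 scaled fragments appeared in 2 CON, 1 PF and 0 PAE animals. The other 8 CON, 9 PF and all 10 PAE animals stood at the floor. The log2 difference was −0.54 ± 0.21 for PAE minus CON and −0.47 ± 0.21 for PAE minus PF (SE). The region was counted as lower in both PAE comparisons, but it had only the minimum of 3 animals and met it only through CON and PF, where it was high, so its differences are given without p-values. All 3 animals with a peak were in lane 8, and 1 of the 4 lanes with both PAE and CON showed a difference. The peak was at least 5.45-fold enriched over local background in each of the 3.

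At chr4:125945923-125946502 peaks came from 4 CON animals, 3 PF animals and 1 PAE animal, with heights of 0.732 to 1.27. The log2 difference was −0.47 ± 0.22 for PAE minus CON (SE, unadjusted limma p = 0.0405, adjusted p = 0.672), and 4 of the 8 animals with a peak were in lane 8. PAE was lower in 2 of the 4 shared lanes, and both groups were at the floor in the other 2.

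PAE was next compared with PF, the control for reduced food intake, in a comparison that shares its PAE animals with the one above. The paper regards pair-feeding as a treatment of its own, with hunger and a disrupted schedule of feeding. PAE against PF therefore does not separate alcohol exposure from food intake. Of the 58 regions outside listed sites, 32 were lower in PAE (55.2%, against 56.4% of all tested regions) and 26 higher. The share lower was 62.7% with lane 8 left out (51.4% of all) and 56.9% under quantile normalization (51.4%). It was 61.1% in the 12 animals whose sex chromosomes matched the label (49.1%), and 53.4% with no lane term (54.7%). Of the 58, 2 were lower at an unadjusted p under 0.05 (3.45%, background 2.95%) and 1 higher (1.72%, background 1.51%). All 3 met the minimum of 3 animals only with the group in which they were called most. The 2 lower became 4 without PF replicate 9 or 10 (6.90% and 7.14%, against 3.07% and 2.97% of all). They became 1 without CON replicate 2 or 9 or PAE replicate 1 or 7 (backgrounds of 2.35% to 3.08%). Without these changes, 0 of the 58 passed after adjustment (smallest limma adjusted p = 0.987, background 0%), and their median log2 difference was −0.05, beside −0.02 over all regions. With animals lacking a peak set to 0 and a pseudocount of 0.1 the medians were −0.12 and −0.09. They were −0.02 and −0.02 with no lane term, and −0.01 and −0.02 without PF replicate 7.

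The 3 regions counted here were that at 126021993, described above, and a pair of weak ones. At chr4:125882275-125882814 peaks came from 1 CON animal, 4 PF animals and 1 PAE animal, with a PAE minus PF difference of −0.19 ± 0.09 (SE), and PAE was below PF in all 3 lanes that held both. It met the minimum of 3 animals only through PF, the group in which it was called most, and its difference is given without a p-value. At chr4:126073738-126074112 peaks 0.452 to 0.619 high came from 1 CON animal and 3 PAE animals, with 0 from PF. Its difference was 0.12 ± 0.06 from PF and 0.12 ± 0.06 from CON (SE). It was the 1 higher region counted in both PAE comparisons, and it met the minimum of 3 animals only through PAE, the group in which it was high.

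For pair-feeding, PF was compared with CON, the same CON animals as above. Of the 58 regions, 39 were lower in PF (67.2%, against 57.6% of all tested regions) and 19 higher. The share lower was 58.6% under quantile normalization (50.6% of all). It was 61.1% in the 12 animals whose sex chromosomes matched the label, below the 63.1% of all tested regions. Of the 58, 2 were lower at an unadjusted p under 0.05 (3.45%, background 4.39%) and 1 higher (1.72%, background 2.06%). The 2 lower became 4 without PAE replicate 2 or CON replicate 6 or 8 (6.90% to 7.02%, against 4.58% to 5.81% of all). They became 1 without CON replicate 1, 2, 5 or 9, PAE replicate 4 or PF replicate 1 or 10 (backgrounds of 3.62% to 4.54%). Quantile normalization left 0 lower and 0 higher (backgrounds of 2.84% and 2.12%). Without these changes, 0 of the 58 passed after adjustment (smallest limma adjusted p = 0.772, background 0%), and the median log2 difference was −0.07, beside −0.03 over all regions. With animals lacking a peak set to 0 and a pseudocount of 0.1 the medians were −0.21 and −0.07. They were −0.03 and −0.002 under quantile normalization.

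The clearest of these by unadjusted p, chr4:126046346-126046802, had peaks from 7 CON animals, 3 PF animals and 4 PAE animals. Its height ranged from the floor to 1.12 in CON (median 0.904), to 1.24 in PF and to 0.965 in PAE, and the medians of PF and PAE were the floor. The difference was −0.63 ± 0.25 for PF minus CON (SE, unadjusted limma p = 0.0162, adjusted p = 0.772) and −0.51 ± 0.24 for PAE minus CON (unadjusted p = 0.0426, adjusted p = 0.673). Under quantile normalization no tested Magi1 region outside listed sites had an unadjusted p under 0.05 for PF against CON. In the 12 animals whose sex chromosomes matched the label, of which 3 were CON and 3 PF, PF minus CON at 126046346 was −0.91 (unadjusted limma p = 0.0686). Among these CON and PF animals only CON replicate 6 and PF replicate 9 shared a lane, so that value rests on few animals. The 14 peaks of this region spread over all 5 lanes, and each of PF and PAE was below CON in all 4 lanes that it shared with CON. The groups overlapped, and the highest animal was in PF.

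The region chr4:125979704-125980143 had peaks from 6 CON animals, 2 PF animals and 2 PAE animals, with heights up to 1.97 in CON, 0.783 in PF and 1.70 in PAE. Its PF minus CON difference of −0.72 ± 0.33 (SE, unadjusted limma p = 0.0381, adjusted p = 0.772) was the largest of the 3 regions named for PF, while PAE minus CON was −0.52 ± 0.32 (adjusted p = 0.714). PF was below CON in 2 of the 4 shared lanes, above it in 1 and equal in 1. At chr4:125978149-125978822 peaks came from 1 CON animal and 3 PF animals, with 0 from PAE, and PF was higher by 0.19 ± 0.09 (SE). With 1 animal left out this difference ranged from 0.08 to 0.27. This region was the 1 higher region counted for PF against CON, and it met the minimum of 3 animals only through PF.

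**Figure D4:**
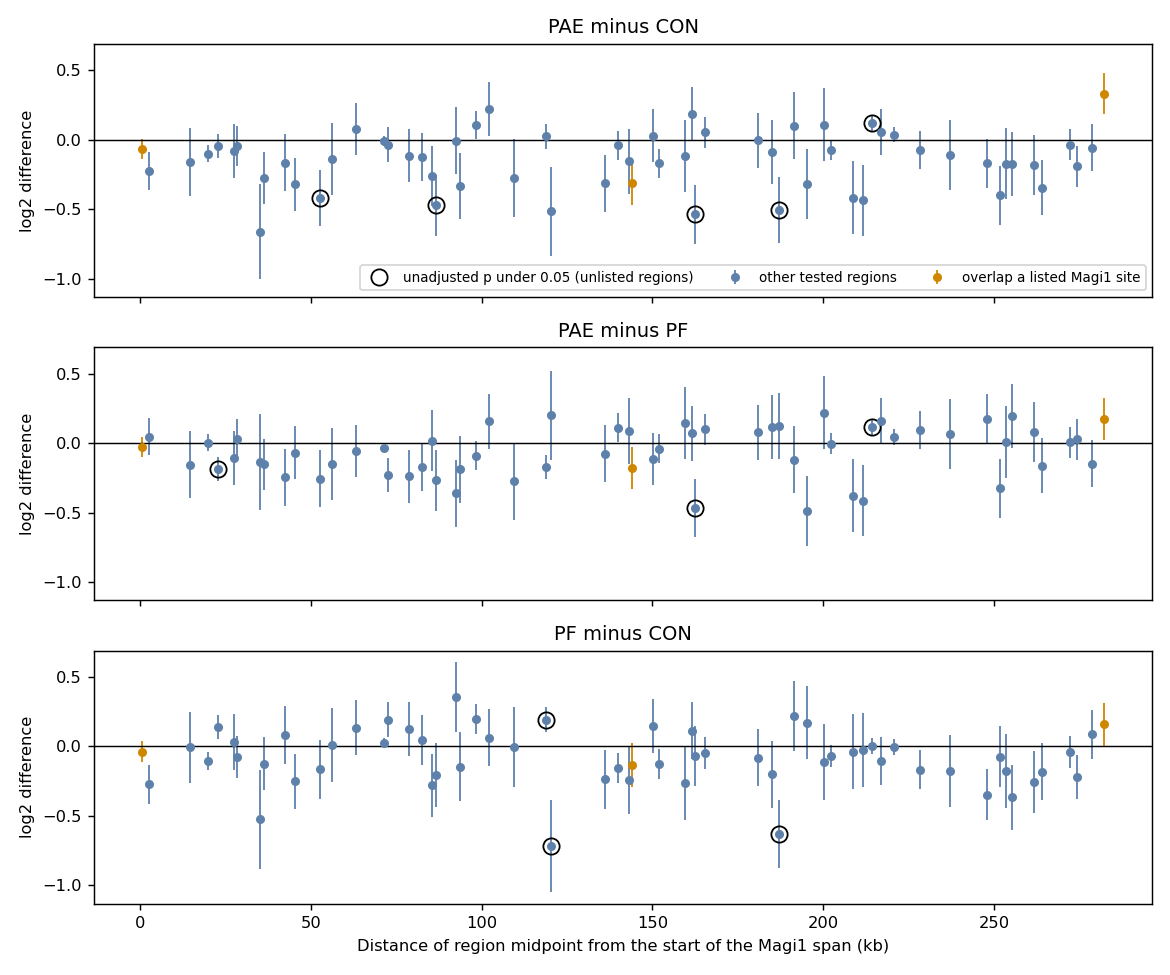
Fitted log2 difference in height (vertical axes, points, with bars of 1 SE) of the 61 tested regions by distance from the start of the span in kb, for PAE minus CON, PAE minus PF and PF minus CON. Orange points overlap listed sites and are not ringed, and black rings mark unadjusted p under 0.05 among the other 58, of which there are 5, 3 and 3; the comparisons share animals, and no blue point passed after adjustment.

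The span was also divided into 3 segments of 94.1 kb each. In the first, 28 regions gave 94 calls in CON, 88 in PF and 68 in PAE animals. The middle segment gave 53, 44 and 42 calls over 24 regions, and the last 89, 64 and 72 over 26. The calls of each segment include a region at a listed site, chosen on these animals, whose calls by group are given above. Autosomal peaks per animal averaged 151576 in CON, 143998 in PF and 135828 in PAE. By fitted value, PAE was below CON in 20 of 21 tested regions outside listed sites in the first segment, 11 of 17 in the middle and 15 of 20 in the last. PAE was below PF in 17 of 21, 7 of 17 and 8 of 20, and PF was below CON in 11 of 21, 12 of 17 and 16 of 20. Over all tested autosomal regions these shares were 63.2%, 56.4% and 57.6%. These counts were not tested, since neighbouring regions come from the same libraries.

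The effect of group in animals labelled male against those labelled female was compared region by region with an interaction term. At an unadjusted limma p under 0.05 the difference depended on labelled sex in 2 of the 58 regions for PAE against CON (background 4.87%), 1 for PAE against PF (3.19%) and 2 for PF against CON (4.77%). After adjustment 0 passed in each (backgrounds 0%, 0% and 0%), with smallest adjusted p-values of 0.941, 1.00 and 0.981. Since 18 libraries went against their labelled sex, these values describe the labels.

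Counted over the whole span, with the listed sites included, peaks were most numerous in CON, as they were in the whole library. The span held 24.4 ± 8.46 peaks per animal in CON, 20.4 ± 5.19 in PF and 18.9 ± 8.52 in PAE (SD, n = 10 each). The lowest, median and highest animals had 15, 24 and 39 peaks in CON, 13, 19.5 and 33 in PF, and 11, 17 and 39 in PAE, so the groups overlapped over nearly their whole range. Autosomal peaks numbered 151576 ± 26759 in CON, 143998 ± 19297 in PF and 135828 ± 26494 in PAE. Per 10000 autosomal peaks the span held 1.58 ± 0.322, 1.40 ± 0.188 and 1.36 ± 0.374. Filtered fragments averaged 13387343 in CON, 14178520 in PF and 14277831 in PAE, and the part of depth in the number of peaks was not tested.

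Members, those at listed sites included, were called 236 times in CON, 196 in PF and 182 in PAE animals. Outside the listed sites, CON had the most calls in 27 of 75 regions (36%, against 26.7% of autosomal regions), PF in 13 (17.3%, against 20.6%) and PAE in 13 (17.3%, against 15.9%), and the others were tied. Of the 58 tested regions outside listed sites, 0 lacked a call in CON (6.43% of all tested autosomal regions), 5 in PF (8.62%, against 8.14% of all) and 7 in PAE (12.1%, against 9.24% of all).

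Peaks in the span, those at listed sites included, also varied by lane. Their mean was 16.4 in lane 4, 16.9 in lane 5, 20.1 in lane 6, 22.4 in lane 7 and 30.7 in lane 8, and the 6 animals of lane 8 supplied 176 of the 614 calls. Within lanes, CON averaged more than PAE in all 4 lanes with both groups, 18.3 against 13.5 in lane 4, 19 against 16 in lane 5, 24 against 18.3 in lane 6 and 38 against 25 in lane 8. PF averaged 16.8, 20.7, 21 and 33 in lanes 5 to 8. A lane held 1 to 4 animals of a group, so these are values without a test.

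**Figure D5:**
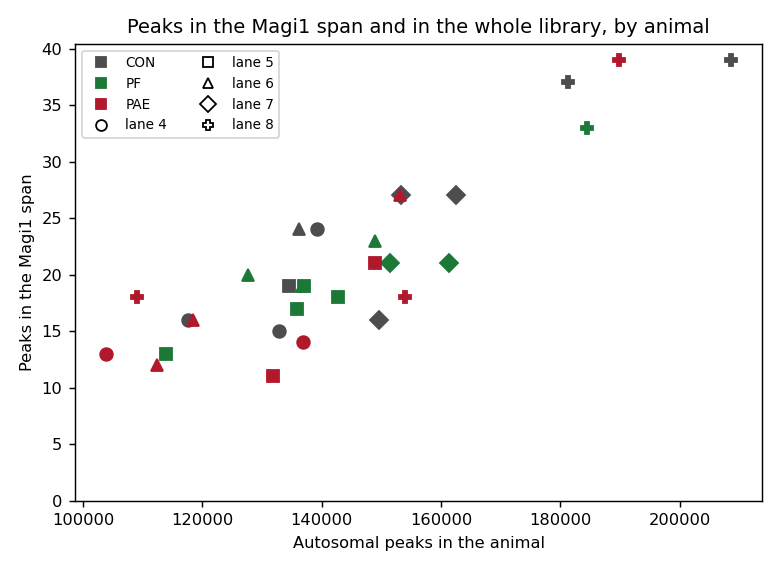
Peaks in the Magi1 span (vertical axis, from 0) against autosomal peaks of the same library (horizontal axis), 1 point per animal, coloured by group and shaped by lane. The animals of lane 8 include the 4 with 33 or more peaks in the span, which are 2 CON, 1 PF and 1 PAE animals.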

How the data were processed

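MeDIP-seq peak lists from 30 animals were used. Alignment to Rn6 was by BWA; the authors filtered with samtools (duplicates, unpaired reads and mapping quality under 10 removed) and ran MACS2 on every animal separately (2.1.4 per the file headers) at q = 0.05 without an input control. The deposited lists give pileup, a coverage signal in fragments, −log10 q-value, and fold enrichment, a ratio to local background. Filtered fragments numbered 11548314 to 16555049 per library.

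Peaks were merged across animals (1 bp overlap) with Python 3.11.15, and the highest pileup per region was scaled to 1000000 filtered fragments. Values under the floor of 0.438 were set to it, then log2 transformed. limma 3.58.1 in R 4.3.3 was fitted with trended prior variance (~group + labelled sex + lane) to 352026 autosomal regions called in at least 3 animals, with Benjamini-Hochberg adjustment over all. Regions at listed sites stayed in the fit but were left out of counts by p, a departure from the planned counts over all tested members. Littermates shared a dam, and a litter random effect was an alternative. The fit was tested on heights shuffled over animals, with changes added only to regions higher than any in the Magi1 span. That test therefore does not show how well the fit finds changes in regions near the floor. Depth limits the lowest callable peak, and pileups rest on few fragments near the floor. Alternatives changed the lane term, floor, region filter, scaling, q threshold, coverage by the peak, litter and sex terms, and animals.

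Regions named were those at listed sites, the 3 highest, the 3 with smallest p per comparison, 2 most like each listed region, and the longest. The members, span and lists were chosen with earlier results of these data known. The authors' read counts and their batch-corrected values were not used here.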

Additional observations from a re-analysis of the deposited data

Results flagged for a closer look

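In PF, the animal with the most peaks in the span had 33, separated from the next by 0.5 of the group's range, which is over the Dixon critical value of 0.466 for 10 animals. In PAE, the animal with the longest total peak length in the span had 15359 bp, a gap of 0.55 of the range. Both animals were in lane 8. Dixon's ratio was computed for 13 sets of 10 animals (3 span totals in each group, and heights where all 10 animals had a peak), and chance flags about 1 in 20. Peaks on chromosome Y, which no comparison used, were present in 13 libraries labelled female at the level of the libraries with a low chromosome X share.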

How the results depend on the processing

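After adjustment, 0 Magi1 regions outside listed sites passed 0.05 in every comparison and for the interaction with labelled sex under every alternative run; the interaction was not run with the sex term dropped or replaced, with matched animals only, or with lane 8 left out. The 3 regions at listed sites, chosen on these animals, stay out of the counts at an unadjusted p under 0.05. For PAE against CON, 5 of 58 (7.37% of all regions) became 8 of 58 with the lane effect removed before the fit (13.5% of all), 0 of 8 among regions called in at least 15 animals (8.47%), 2 of 58 under quantile normalization (5.73%), 2 of 36 in the animals whose sex chromosomes matched the label (6.93%) and 3 of 51 with lane 8 left out (4.71%), an alternative chosen after seeing the data. For PAE against PF, 3 of 58 (4.46%) became 5 of 58 with no lane term (3.69%), 6 of 58 with the lane effect removed before the fit (9.01%), 6 of 75 among regions called in at least 2 animals (4.18%), 0 of 8 in at least 15 (5.01%), 5 of 51 where a peak had to cover 50% of the region (4.37%) and 0 of 36 in matched animals (3.12%). For PF against CON, 3 of 58 (6.46%) became 6 of 58 with lane removed before the fit (13.5%), 0 of 8 in at least 15 animals (6.01%), 1 of 58 under median ratio scaling (5.37%), 0 of 58 under quantile normalization (4.96%), 6 of 51 with 50% coverage (6.38%), 1 of 58 with chromosome X share as covariate (5.99%) and 0 of 36 in matched animals (4.60%). Leaving out 1 animal at a time gave 1 to 8, 2 to 4 and 1 to 5, while the share of all regions ran from 5.86% to 8.53%, 3.80% to 4.90% and 5.81% to 7.72%. For PAE against CON the count was 1 without PF replicate 10, 2 without CON replicate 1, 9 or 10 or PAE replicate 1, 3 or 7, 3 without CON replicate 3, 5 or 6, PAE replicate 6 or 9 or PF replicate 1 or 4, and 8 without PAE replicate 2. For PF against CON it was 1 without CON replicate 1 or 9 and 5 without CON replicate 6 or 8 or PAE replicate 2.

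The median difference of PAE from CON over these regions was −0.358 with animals lacking a peak set to 0 and a pseudocount of 0.1, and −0.147 to −0.0847 with 1 animal left out; the other medians with 1 animal left out were −0.0779 to −0.0127 for PAE against PF and −0.112 to −0.0482 for PF against CON. The region at 125941855 gave 0.00564 for PAE minus CON under quantile normalization, and for PF minus CON −0.0416 with no lane term, −0.252 in matched animals and −0.0495 to 0.119 with 1 animal left out. With 1 animal left out it ranged from −0.203 to −0.0708 for PAE minus CON and from −0.248 to −0.0837 for PAE minus PF. The region at 125859630 gave 0.00858 for PAE minus PF with q below 0.01, 0.129 for PF minus CON in matched animals, and −0.0620 to 0.0137 and −0.0904 to 0.0274 with 1 animal left out, in these 2 comparisons in turn. For PF minus CON, the region at 126141640 gave −0.0481 in matched animals, and that at 126070946 gave 0.0169 under median ratio scaling, 0.0474 under quantile normalization, 0.0296 with q below 0.01, 0.0159 with chromosome X share and −0.100 to 0.0702 with 1 animal left out. The region at 125894523 ranged from −0.278 to 0.0482 for PAE minus PF with 1 animal left out. The cause of these changes was not tested. The groups were not compared in pairs, because each litter lay within 1 group and replicate numbers only name animals. The PAE partner of each PF dam is not given in the sample labels. For the interaction with labelled sex, littermates could have been paired, but the fit with terms for labelled sex and lane did not pair them.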

Other observations

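At the region called in every animal, chr4:125941855-125942602, the length of the called peak is given as a measure chosen after its values were seen. It ranged from 381 to 712 bp in CON (median 516 bp), from 361 to 627 bp in PF (median 475 bp) and from 312 to 688 bp in PAE (median 354.5 bp). The peak covered at least 50% of the merged region in 10 CON, 9 PF and 4 PAE animals. The length was not tested between groups, and the ranges overlapped. A requirement of 50% coverage sets the other animals to the floor, so the log2 differences under it, −1.11 for PAE minus CON and −1.12 for PAE minus PF (limma adjusted p = 0.72 and 0.98), restate these lengths; with every called peak they were −0.13 and −0.17.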
